A study of Mus musculus with 20 samples.

Results

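Kidneys of mice given Hemin and no ischemia were compared with kidneys of untreated Control mice, by the group that the sample labels give. The comparison used 8 of the 20 arrays of the series, 4 Hemin and 4 Control, and each array held whole-kidney RNA of 1 labelled replicate. All mice were male C57BL/6 of 8 to 12 weeks, without any transgene or deletion. Control mice had neither surgery nor treatment, and no vehicle group is described, so Hemin and the act of injection cannot be told apart. Hemin mice received 25 mg/kg i.p., a dose that the general protocol places 24 h before surgery. These mice had no surgery, and the time from Hemin to collection of their kidneys is not given in the sources used here. The other 12 arrays held kidneys with ischemia/reperfusion injury, in which both renal pedicles were clamped for 45 min and reperfused for 6 h: IRI alone, IRI after Hemin (IRI+Hemin) and IRI after ischemic preconditioning (IPC+IRI), with 4 arrays each. Hemin vs Control asks which genes the dose moved in a kidney without an ischemic challenge.

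Hemin is the oxidized, chloride-bound form of heme, the iron-porphyrin of hemoglobin and of many enzymes. Heme taken into a cell is opened by heme oxygenase, encoded by the inducible Hmox1 and the constitutive Hmox2, into carbon monoxide, iron and biliverdin, which biliverdin reductase turns into bilirubin. Heme also displaces the repressor BACH1 from DNA, so that NRF2 can drive Hmox1, ferritin and antioxidant genes, and the released iron is stored in ferritin or exported through ferroportin. In the kidney, the proximal tubule takes up filtered heme proteins and is the segment best known for heme oxygenase induction.

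Signals were read as log2 levels, where 0 stands for the 75th percentile of the probes of that array, and a gene counted as changed when limma's moderated test over all 5 groups gave an adjusted p below 0.05. Of 57 proximal tubule markers, 57 were well above background on all 8 arrays, with summed signals of 2257 to 2544 times the 75th percentile in Control and 2238 to 2383 times in Hemin. The kidney label was thus borne out on every array. The 75th percentile itself lay between 146.7 and 220.5 intensity units on Control arrays and between 255.7 and 323.5 on Hemin arrays, and 63.3% to 67.4% of genes were well above background. Control replicate 2 stood apart. Across genes it correlated with the other Control arrays at r = 0.973 to 0.978 and with Hemin arrays at 0.971 to 0.976, whereas the other 3 Control arrays correlated among themselves at 0.986 to 0.992 and the Hemin arrays at 0.989 to 0.994. Its summed adipocyte markers were 133.8 against 24.8 to 27.5 in the other Control arrays and 26.4 to 51.5 in Hemin arrays. Its summed red cell markers were 215.4 against 49.6 to 75.7 and 50.3 to 94.1. The part of these cells in the results was not tested. Each group was hybridised on a slide of its own, and Control was scanned on the first and Hemin on the third of 3 scan days. Hemin, slide and scan day therefore cannot be told apart from these 8 arrays, and nothing in the labels says whether the replicates were processed as separate animals throughout, so that p-values measure the spread between these arrays.

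A broad shift in both directions separated Hemin from Control, and few genes moved far. Among 18579 genes tested, 3442 were higher (18.5%) and 3271 lower (17.6%) after Hemin. At least 3-fold changes numbered 78 higher (0.42%) and 231 lower (1.24%). The number at least 3-fold higher was 135 without Control replicate 2 and 47 without Control replicate 3. Brighter genes were called higher more often. When genes were ordered by mean level and cut into 4 equal bins, 29.4% of the brightest were higher and 9.84% lower, whereas 10.2% of the dimmest were higher and 22.2% lower. Among genes called higher, Control replicate 2 was the Control array nearest to the Hemin mean in 2557 of 3442 (74.3%), and among genes called lower in 1741 of the 3269 measured on all Control arrays (53.3%). Over all genes the median was 0.06 on the log2 scale and became 0.62 without scaling between arrays, and 94.7% of calls were then higher in place of 51.3%. That share was 35.1% when the 75th percentile was taken over probes above background on all arrays. Without scaling 8824 of the 18579 genes were higher and 490 lower. Under quantile normalization 3670 and 3402 were, and under that other percentile 2329 and 4303. Counts of gene lists under these settings, given below, are to be read against these.

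Hmox1, the gene that Hemin was given to induce, did not pass the test. Its log2 level was 0.96, 2.14, 1.18 and 1.18 in Control replicates 1 to 4 and 1.69, 1.91, 2.20 and 1.92 in Hemin replicates 1 to 4. All Hemin arrays lay above Control replicates 1, 3 and 4, and Control replicate 2 lay above 3 of the 4 Hemin arrays. The log2 fold change was 0.56 ± 0.46 (SE; 95% interval -0.42 to 1.55), with adjusted p = 0.36 and p = 0.114 in a two-sided exact permutation test, in which 4 against 4 arrays can reach 0.0286. Without Control replicate 2 it was 0.82, with adjusted p = 0.194 by limma. The SE and adjusted p values of Hmox1 rest on the spread pooled over all 5 groups, injured kidneys included, and not on the Control and Hemin arrays alone.

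Of 24 tested genes of heme breakdown, synthesis and transport, 4 rose (16.7%, against 18.5% of all genes) and 2 fell (8.33%, against 17.6%), and their median log2 fold change was 0.05, against 0.06 over all genes. This median turned negative under quantile normalization and under the percentile over probes above background. Under each of these 1 was higher and 2 lower. Without scaling, where 8824 of all 18579 genes were higher and 490 lower, 13 of the 24 were higher and 0 lower. The number that rose was 6 without Control replicate 2 and 1 without Control replicate 4. Those that rose included Mfsd7c (now Flvcr2), a transporter linked to heme uptake (log2 fold change 0.63 ± 0.21 (SE), adjusted p = 0.0248), the heme-binding protein gene Hebp1 (0.40 ± 0.14, 0.0366) and Fech, whose product inserts iron into protoporphyrin (0.31 ± 0.10, 0.0172). For Fech a second probe gave a log2 difference of -0.09. Each of these calls was lost without at least 1 array, with the highest adjusted p at 0.113 for Hebp1 without Control replicate 4, 0.0742 for Mfsd7c without Control replicate 4 and 0.0504 for Fech without Hemin replicate 3. Hp, encoding haptoglobin, the plasma carrier of free hemoglobin, had the largest log2 fold change of the list and did not pass (log2 fold change 1.08 ± 1.94 (SE), adjusted p = 0.693). It read -4.12, 4.48, -4.55 and -4.94 in Control and 1.65, -3.41, 0.07 and -3.11 in Hemin, with Control replicate 2 above every Hemin array, and without that array the difference was 3.34 (adjusted p = 0.108). The adipocyte gene Adipoq read -6.78, 2.46, -7.08 and -7.05 in Control and 0.06, -5.56, -1.23 and -7.29 in Hemin, so that both genes were highest on Control replicate 2 and, within Hemin, on replicates 1 and 3. The part of adipose tissue in the value of Hp was not tested. Hpx, encoding hemopexin, the plasma carrier of free heme, fell (log2 fold change -0.79 ± 0.21 (SE), adjusted p = 0.00703). Constitutive Hmox2 also fell: its log2 level was 3.81, 3.38, 3.74 and 3.67 in Control and 3.18, 3.29, 3.06 and 3.08 in Hemin, so that the groups did not overlap, and the log2 fold change of -0.50 (adjusted p = 0.00352) became 0.07 without scaling. Blvra, encoding biliverdin reductase A, and Alas1, the first and heme-repressed step of heme synthesis, had log2 fold changes of 0.03 ± 0.09 and -0.23 ± 0.22 and were not called. Eif2ak1, encoding the heme-regulated eIF2α kinase, was lower (log2 fold change -0.49 ± 0.13 (SE), adjusted p = 0.00716), although without scaling its log2 fold change was 0.08.

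Among 29 tested iron genes, 2 rose (6.90%) and 5 fell (17.2%, against 17.6% of all genes). Their median was 0.00 on the log2 scale and 0.56 without scaling, against 0.06 and 0.62 over all genes. Without scaling, where 8824 of all 18579 genes were higher and 490 lower, 13 of the 29 were higher and 0 lower. Under quantile normalization 3 were higher and 9 lower. Ferritin heavy chain Fth1, the main iron store, ranged over 7.56 to 8.16 in Control and 7.56 to 7.76 in Hemin, and its log2 fold change was -0.17 ± 0.16. For the iron exporter gene Slc40a1 the difference was 0.10 ± 0.13. Neither was called. Fthl17, a ferritin-like gene, had Control levels of -3.30, -1.40, -3.74 and -3.77 and Hemin levels of -1.10, -1.16, -1.42 and -1.66. Control replicate 2 lay among the Hemin arrays, and the call (log2 fold change 1.72 ± 0.40 (SE), adjusted p = 0.00327) held without it. Heph, a ferroxidase gene, was higher by 0.35 ± 0.09 (adjusted p = 0.00723), and lower by the mean of log2 values over its probes (-0.21). The genes that fell were the metalloreductases Steap3 (-0.95 ± 0.20, 0.00183) and Steap2 (-0.85 ± 0.14, 3.59e-04), the iron-sensing ubiquitin ligase subunit Fbxl5 (-0.86 ± 0.11, 6.99e-05), transferrin receptor 2 (Trfr2, -0.86 ± 0.30, 0.034) and Ncoa4, which brings ferritin to autophagosomes (-0.52 ± 0.15, 0.0143). The call of Trfr2 was lost without Control replicate 2 (adjusted p = 0.087) and most without Control replicate 1 (0.105), and that of Ncoa4 without Control replicate 3 (0.0507). Without scaling between arrays Ncoa4 was at 0.04.

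**Figure D1:**
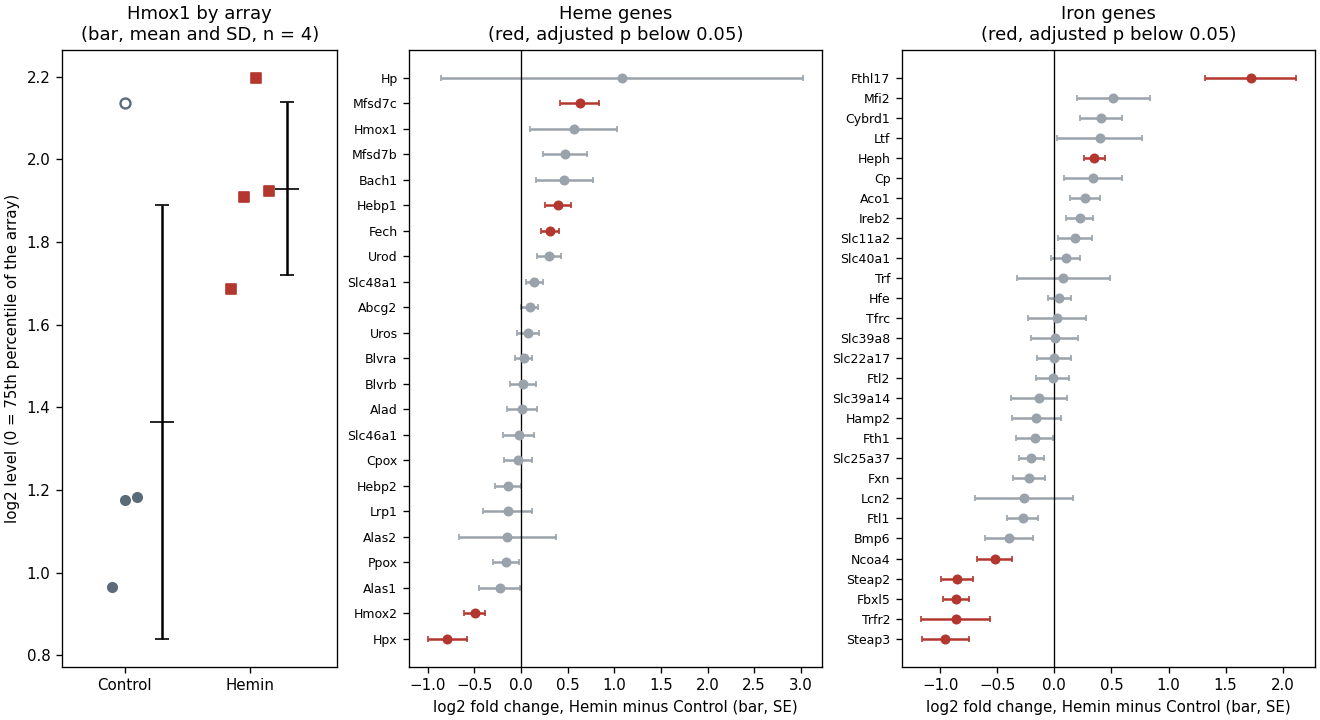
The left panel plots the log2 level of Hmox1 on each array (circles, Control, with replicate 2 open; squares, Hemin; bars, mean and SD, n = 4), and the other panels plot log2 fold changes with SE for 23 of the 24 tested heme genes and the tested iron genes. Hmox1 in Control replicate 2 lay at 2.14, within the Hemin range of 1.69 to 2.20, and the genes that passed the test are red.

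Antioxidant genes moved both ways. Of 39 tested NRF2 targets, 5 rose and 5 fell (12.8% each, against 18.5% and 17.6% of all genes). With Control replicate 2 left out 10 rose, and with Control replicate 1 left out 3 did. Without scaling 18 of the 39 were higher and 0 lower, under quantile normalization 4 and 6, and under the percentile over probes above background 3 and 6. Nqo1, a quinone reductase and a textbook NRF2 target, fell from 2.80, 2.63, 2.67 and 2.96 in Control to 1.89, 1.93, 1.74 and 2.29 in Hemin. The groups did not overlap, with a log2 fold change of -0.80 ± 0.21 (adjusted p = 0.00767). Gsr, encoding glutathione reductase, fell too (log2 fold change -0.93 ± 0.18 (SE), adjusted p = 0.00115). Among 24 antioxidant enzymes 7 rose (29.2%) and 4 fell (16.7%). The balance depended on the scaling, with 5 higher and 9 lower under quantile normalization, 4 and 8 under the percentile over probes above background and 13 and 2 without scaling, and 3 were higher without Control replicate 1. The falls included Sod3 and Cat. Sod3, encoding extracellular superoxide dismutase, read 1.62, 0.32, 2.37 and 1.99 in Control and -0.82, -0.70, -0.86 and -0.74 in Hemin, a 5.11-fold fall (log2 fold change -2.35 ± 0.28 (SE), adjusted p = 4.50e-05). Control replicate 2 was the lowest Control array and still lay above every Hemin array. Cat, encoding the peroxisomal enzyme that splits hydrogen peroxide, read 6.17, 5.69, 6.19 and 6.26 and 4.64, 4.65, 4.74 and 4.999, a 2.5-fold fall (log2 fold change -1.32 ± 0.17 (SE), adjusted p = 6.30e-05). Both were also lower in IPC+IRI vs IRI, a comparison without Hemin described further on, with log2 fold changes of -3.47 and -1.44.

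The largest rise, among genes well above background on all 8 arrays whose groups did not overlap, belonged to ribosomal RNA. LOC236598 (now Rn28s1, 28S ribosomal RNA) read -3.64, -0.46, -3.98 and -3.80 in Control and 0.85, 0.66, 1.02 and 0.26 in Hemin. Control replicate 2 was the Control array nearest to the Hemin arrays, and the groups did not overlap. The rise was 12.7-fold (log2 fold change 3.67 ± 0.56 (SE), adjusted p = 1.92e-04), and 4.51 on the log2 scale without Control replicate 2. Rn18s (18S ribosomal RNA) read 5.14, 7.74, 4.55 and 4.95 and 7.53, 7.43, 7.41 and 7.60, with Control replicate 2 above every Hemin array (log2 fold change 1.90 ± 0.57 (SE), adjusted p = 0.0149). Its call was lost without Control replicate 3 (adjusted p = 0.0590). The 60-base probes for both are printed because the labelling of polyadenylated RNA is not meant to copy these RNAs. Coordinates are those of mm9 in the array annotation, with LOC236598 on the minus strand and Rn18s on the plus strand.
LOC236598 probe, chr2:22600367-22600426: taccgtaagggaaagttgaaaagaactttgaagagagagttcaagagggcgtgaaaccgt
Rn18s probe, chr17:39984059-39984118: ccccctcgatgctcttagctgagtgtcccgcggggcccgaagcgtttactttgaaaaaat
Rn18s probe, chr17:39983322-39983381: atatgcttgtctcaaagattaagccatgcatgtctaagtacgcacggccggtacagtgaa
The log2 difference of the first Rn18s probe was 1.87 and that of the second 3.30.

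The 12 largest rises, LOC236598 included, ranged from 3.19-fold to 12.7-fold and held chromatin, signaling and transport genes. Bcl6, a transcriptional repressor of germinal center B cells and of many other tissues, read 0.70, 3.90, 1.37 and 2.70 in Control and 4.02, 4.54, 3.91 and 4.49 in Hemin. The Control arrays were widely spread, and replicate 2, at 3.90, nearly reached the lowest Hemin array, at 3.91 (log2 fold change 2.07 ± 0.46 (SE), adjusted p = 0.0025). The histone gene Hist3h2ba (now H2bu2) rose by 2.12 ± 0.27 (adjusted p = 6.82e-05), the nuclear lamina gene Lmnb1 by 2.01 ± 0.25 (5.39e-05) and the patterning gene Hoxd4 by 1.94 ± 0.36 (7.42e-04) on the log2 scale. Chrm1, the M1 muscarinic receptor gene, read -2.10, -1.59, -2.18 and -2.49 in Control and 0.02, -0.07, -0.13 and -1.30 in Hemin (log2 fold change 1.72 ± 0.25 (SE), adjusted p = 1.40e-04), with Hemin replicate 4 below the other Hemin arrays. This value rests on 1 of 2 probes, since the other was above background on 1 array. Slc14a1, the urea transporter gene of red cells and of the vasa recta, rose by 1.67 ± 0.53 (0.0193), a call lost without Control replicate 3 (adjusted p = 0.0820) or Hemin replicate 3. Others were the ciliary gene Wdr16 (now Cfap52, 2.28), the epithelial ETS factor Elf5 (2.02), calmodulin-like Calml3 (1.94) and the transcript NAP111074-1 (2.04).

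**Figure D2:**
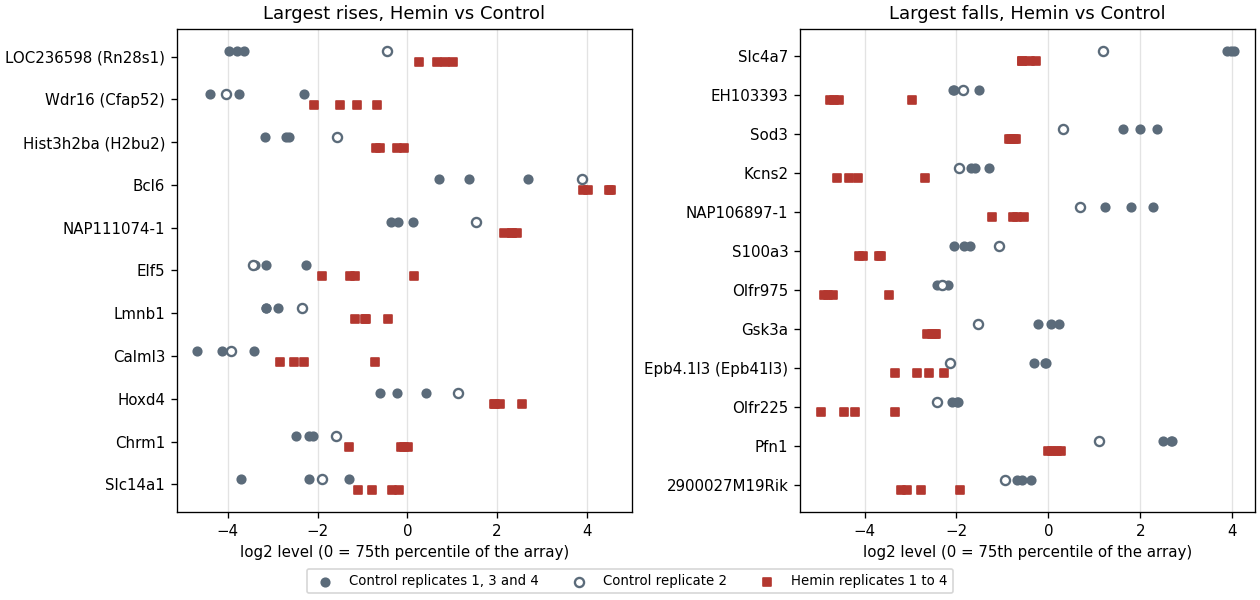
Each row is a gene and each point the log2 level on 1 array (0 is the 75th percentile of the array), with 11 of the 12 largest rises on the left and the 12 largest falls on the right. Control (circles, replicate 2 open) and Hemin (squares) did not overlap in any row, and among all 12 of each, replicate 2 was the Control array nearest to the Hemin mean in 7 rises and 9 falls.

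The 12 largest falls ranged from 4.28-fold to 13.3-fold. Slc4a7, the sodium bicarbonate cotransporter NBCn1, read 3.99, 1.19, 4.05 and 3.89 in Control and -0.41, -0.57, -0.57 and -0.26 in Hemin (log2 fold change -3.73 ± 0.50 (SE), adjusted p = 8.15e-05). Its 3 probes disagreed. The first 30 bases of each, on the plus strand of mm9, are given here because they separate the fall from the rises.
Slc4a7 probe within chr14:15572341-15572400: aaaggttcacgagtcggattcccctggttc
Slc4a7 probe within chr14:15614734-15618862: atggttcttgcattagtctttgtgcgcaag
Slc4a7 probe within chr14:15632300-15632359: gacctgatatttttcatctatatgaagtac
The first of these fell by 5.22 on the log2 scale and set the gene value, whereas the others rose by 0.99 and 1.03. Under the mean of log2 values over probes, Slc4a7 stood at -1.07. Kcns2, a modulatory potassium channel subunit gene, fell by 4.98-fold (log2 fold change -2.32 ± 0.44 (SE), adjusted p = 8.26e-04), S100a3, a calcium-binding protein gene, by 4.63-fold (log2 fold change -2.21 ± 0.23 (SE), adjusted p = 1.45e-05), the kinase gene Gsk3a by 4.44-fold (log2 fold change -2.15 ± 0.25 (SE), adjusted p = 3.47e-05) and Pfn1, encoding the actin-binding profilin, by 4.33-fold (log2 fold change -2.11 ± 0.26 (SE), adjusted p = 4.50e-05). Epb4.1l3 (now Epb41l3), a membrane skeleton gene, fell by 4.36-fold (log2 fold change -2.12 ± 0.42 (SE), adjusted p = 0.00108), although Control replicate 2, at -2.14, lay close to the highest Hemin array, at -2.26. The remaining falls were the olfactory receptor genes Olfr975 (-2.16) and Olfr225 (-2.12) and the transcripts EH103393 (-2.36), NAP106897-1 (-2.31) and 2900027M19Rik (-2.10).

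IPC+IRI vs IRI crosses the same pair of scan days as Hemin vs Control, in the same order, shares no array with it and holds no Hemin. This comparison was added after the data were seen. Its calls were 25.2% higher and 17.3% lower. Of the 3442 genes higher after Hemin, 2311 were also higher there (67.1%, or 49.4% of the genes higher there) and 12 lower. Of the 3271 genes lower after Hemin, 1776 were also lower there (54.3%, or 55.3% of the genes lower there) and 103 higher. Across the 18579 genes the log2 fold changes of both comparisons correlated at r = 0.608, a description over genes that are not independent replicates. Of the 12 largest rises 6 were also higher there, including LOC236598 (4.82), Hist3h2ba (2.32), Lmnb1 (2.71) and Hoxd4 (1.79). Of the 12 largest falls 9 were also lower there, including Slc4a7 (-3.64), Gsk3a (-2.30) and Pfn1 (-2.58). Fthl17 stood at 3.17 and Eif2ak1 at -0.74. For the 78 genes at least 3-fold higher after Hemin the median log2 fold change was 1.72, and 1.46 in IPC+IRI vs IRI. For the 231 at least 3-fold lower it was -1.85, and -0.85 there. The part of scan day or slide in either comparison was not tested.

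The difference between the log2 fold changes of both comparisons passed the test in 696 genes (3.75%), 122 with Hemin vs Control above (0.657%) and 574 below (3.09%). Of the genes called in Hemin vs Control, it passed in the same direction in 35 that rose and 307 that fell. Apoa4, encoding an intestinal and hepatic apolipoprotein that serves lipid transport, read -1.82, -1.69, -2.01 and -1.76 in Control and -0.03, -0.20, -0.42 and -0.20 in Hemin. The groups did not overlap. The rise was 3.04-fold (log2 fold change 1.60 ± 0.21 (SE), adjusted p = 8.15e-05), against a log2 fold change of 0.17 in IPC+IRI vs IRI (difference 1.43, adjusted p = 0.0151). Gatm, which catalyses the first step of creatine synthesis and is abundant in proximal tubule, read 5.09, 4.85, 5.38 and 5.38 in Control and 3.87, 3.99, 3.62 and 4.04 in Hemin. It fell by 2.46-fold (log2 fold change -1.30 ± 0.23 (SE), adjusted p = 4.47e-04) against 0.02 (difference adjusted p = 0.0279). Insig1, an endoplasmic reticulum protein gene that restrains cholesterol synthesis, read -1.87, -1.86, -2.24 and -1.68 and -3.14, -3.13, -3.31 and -3.003, a 2.35-fold fall (log2 fold change -1.23 ± 0.14 (SE), adjusted p = 3.47e-05) against -0.23 (0.012). Cyp2d34, a cytochrome P450 gene, read 0.50, 0.66, 0.57 and 0.09 and -1.32, -1.08, -1.51 and -1.09, a 3.26-fold fall (log2 fold change -1.71 ± 0.17 (SE), adjusted p = 9.56e-06) against 0.14 (6.73e-04). Chrm1 and S100a3 also passed, with difference adjusted p = 0.0234 and 0.0243. Hmox1 passed as well (0.0322), with a log2 fold change of -2.07 in IPC+IRI vs IRI. Bcl6, Calml3 and Isg15 had log2 fold changes of 0.42, 0.27 and 0.20 there, yet the difference did not pass (0.164, 0.0879 and 0.201).

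**Figure D3:**
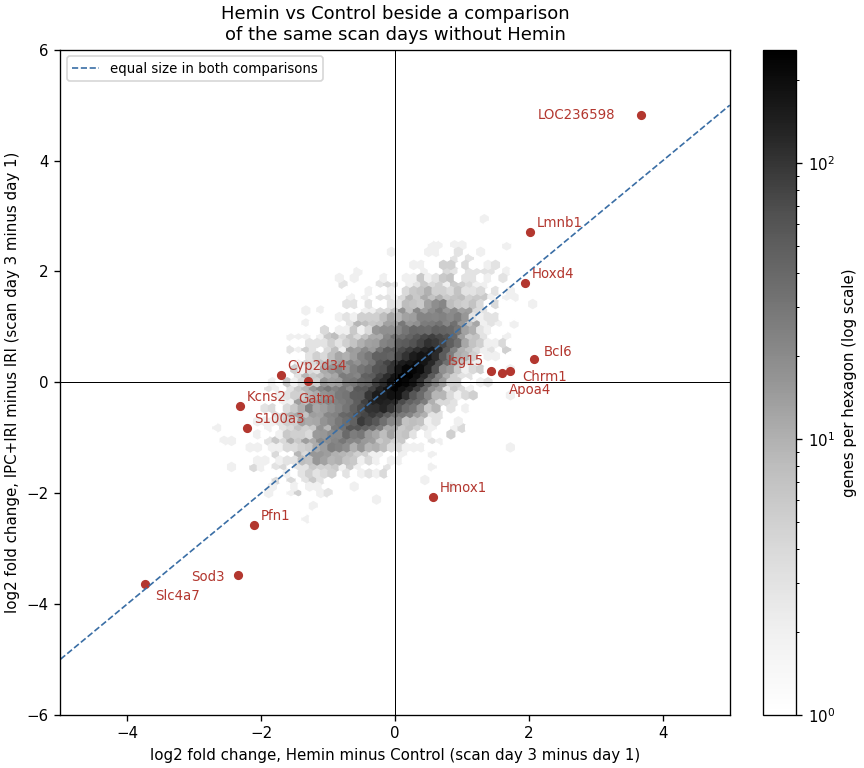
Each gene is placed by its log2 fold change in Hemin vs Control (x axis) and in IPC+IRI vs IRI (y axis), with darker hexagons holding more of the 18579 genes and named genes in red. LOC236598, Lmnb1, Hoxd4, Slc4a7, Sod3 and Pfn1 moved the same way in both, and Apoa4, Bcl6, Chrm1, Isg15, Gatm and Cyp2d34 lay near 0 on the y axis.

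Interferon response genes had a higher median than all genes, although a smaller share of them was called higher. Of 41 tested, 5 rose (12.2%, against 18.5% of all genes) and 0 fell (against 17.6%) by limma, with 7 higher and 1 lower at an unadjusted p below 0.05. SAM, which called 196 of all 18579 genes higher and 693 lower, called 2 of the 41 higher and 0 lower. Their median log2 fold change was 0.42 against 0.06 over all genes. In 19 of the 41 all Hemin arrays lay above all Control arrays, against 19.5% of all genes. Isg15, encoding a ubiquitin-like modifier, read -2.15, -1.43, -2.62 and -1.96 in Control and -0.74, -0.53, -0.75 and -0.40 in Hemin and rose 2.7-fold (log2 fold change 1.43 ± 0.38 (SE), adjusted p = 0.00706). The transcription factor gene Stat2 (1.26 ± 0.27), the antiviral tether gene Bst2 (0.92 ± 0.23), the peptide transporter gene Tap2 (0.70 ± 0.17) and Ifi35 (0.53 ± 0.14) rose with it. In IPC+IRI vs IRI the median of these 41 genes was 0.04, with 5 higher, Bst2 among them (1.02), and 2 lower, and the difference between both comparisons passed limma's test in 0 of the 41 (at an unadjusted p below 0.05, Hemin vs Control was above in 7 and below in 3). The promoter of Isg15 is printed from RefSeq (GRCm38.p6, chr4:156200769-156201068, minus strand, around the start of transcription). The core of the interferon-stimulated response element, GAAA repeated after 2 bases of any kind, is in capitals, and here matches overlap in a single run.
Isg15 promoter: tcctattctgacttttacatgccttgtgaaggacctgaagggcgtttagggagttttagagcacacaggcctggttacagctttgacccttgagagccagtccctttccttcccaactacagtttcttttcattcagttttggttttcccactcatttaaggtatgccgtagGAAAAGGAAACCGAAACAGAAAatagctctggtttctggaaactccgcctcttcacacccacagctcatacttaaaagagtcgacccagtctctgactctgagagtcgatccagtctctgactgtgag
Searched on both strands, this motif occurred in 1131 of 32851 promoters (3.44%), in 16 of the 31 tested interferon genes with a promoter in the table, and in 3 of the 4 of them that rose (Bst2, Isg15 and Stat2). A match describes the letters of this window and shows no binding.

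Leukocyte markers had a median below 0, and the share called lower was near that of all genes. Of 37 tested, 0 rose and 5 fell (13.5%, against 17.6% of all genes) by limma, with 0 higher and 8 lower at an unadjusted p below 0.05. SAM, which called 196 of all 18579 genes higher and 693 lower, called 0 and 3 of the 37. The median log2 fold change was -0.18, but 0.39 without scaling, where 3 markers were higher and 3 lower, and 3 were lower without Control replicate 1. In 13 of the 37 all Hemin arrays lay below all Control arrays, against 18.2% of all genes. In IPC+IRI vs IRI 10 were higher and 2 lower, with a median of 0.27. Their summed signal was 33.0 to 39.2 in Control and 20.2 to 26.3 in Hemin, without overlap, and 7 of 46 markers on the array were at background throughout. Without Cd74 the sum was 21.1 to 23.6 in Control and 16.7 to 21.7 in Hemin, which overlap. Cd74, the invariant chain that escorts MHC class II, read 3.98, 3.23, 3.67 and 3.65 in Control and 1.71, 2.11, 2.19 and 1.95 in Hemin, a 3.12-fold fall (log2 fold change -1.64 ± 0.34 (SE), adjusted p = 0.00136). Its partner H2-Eb1 fell (log2 fold change -0.82 ± 0.28 (SE), adjusted p = 0.0303), a call lost in 6 of 8 tests that left out 1 array, up to adjusted p = 0.0813 without Hemin replicate 1. H2-Ab1 read 1.72, 1.77, 1.62 and 1.73 in Control and 0.87, 1.19, 1.38 and 1.26 in Hemin, and H2-Aa had a log2 fold change of -0.60 ± 0.34. Neither passed the test, although the groups did not overlap. Cd79a, a B cell receptor gene, was at least 2.45-fold lower (adjusted p = 0.0108), a bound, because no Hemin array read it well above background. It passed the filter on dim signals through Control alone, which favours a fall. Ptprc, the pan-leukocyte CD45 gene, stood at 0.01 ± 0.29, with a probe above background on 8 arrays at 0.23 and another, above it on 7, that fell by 1.00 on the log2 scale. The gene value turned negative under 3 alternatives and without Hemin replicates 3 or 4. In whole kidney, fewer cells of a type and less RNA per cell cannot be told apart.

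Arginine and nitrogen genes were called at shares near those of all genes. Of 39 tested, 8 rose (20.5%, against 18.5%) and 5 fell (12.8%, against 17.6%). Without scaling 20 were higher and 1 lower. Under quantile normalization, and under the percentile over probes above background, 7 were higher and 8 lower. Gatm and Ass1, the argininosuccinate synthase of renal arginine supply, fell. Ass1 read 7.27, 6.84, 7.26 and 7.06 in Control and 6.08, 6.50, 6.26 and 6.23 in Hemin, with no overlap (log2 fold change -0.84 ± 0.13 (SE), adjusted p = 2.15e-04). In IPC+IRI vs IRI it stood at -0.90. The glutaminase gene Gls2, counted among the 8, was above background on all Hemin and on no Control arrays, so that the filter favoured a rise, and was at least 2.24-fold higher (adjusted p = 4.85e-04), although with normexp background correction its log2 difference was -0.17. Among 22 apolipoprotein and lipid secretion genes 6 rose (27.3%) and 4 fell (18.2%), and with 1 array left out 5 to 9 rose and 2 to 5 fell. Alongside Apoa4 rose its genomic neighbour Apoc3, which slows lipolysis of triglyceride-rich particles (0.26, -0.09, 0.06 and 0.26 in Control, 1.11, 0.92, 0.67 and 1.11 in Hemin, adjusted p = 0.00842), Apoa1 of high density lipoprotein (log2 fold change 0.66 ± 0.17 (SE), adjusted p = 0.00686; -0.27 with normexp), above background on 2 Control and 4 Hemin arrays, and the cholesterol exporter gene Abca1 (log2 fold change 0.87 ± 0.24 (SE), adjusted p = 0.00982). Abcg5, a sterol exporter gene counted among the 6, was at least 2.11-fold higher (adjusted p = 0.00376, and -0.18 on the log2 scale with normexp), but was above background on no Control array and passed the filter through Hemin alone. Apoa1 likewise passed it through Hemin alone, which favours a rise. Mttp, which loads lipid onto apolipoprotein B, fell (log2 fold change -1.35 ± 0.19 (SE), adjusted p = 1.32e-04). Hepatic lipase Lipc was lower as well (log2 fold change -1.62 ± 0.40 (SE), adjusted p = 0.00448). It was above background on all Control and 1 Hemin array, and so passed the filter through Control alone, which favours a fall. Of 33 coagulation genes 7 were lower (21.2%, against 17.6% of all genes) and 2 higher (6.06%, against 18.5%), whereas without scaling 1 was lower and 8 higher. The number higher was 5 without Control replicate 2 and 1 without Control replicate 1. F7, encoding the factor that starts clotting with tissue factor, fell 3.68-fold (log2 fold change -1.88 ± 0.30 (SE), adjusted p = 2.44e-04). F5 fell 3.19-fold (log2 fold change -1.67 ± 0.41 (SE), adjusted p = 0.00443), with Control replicate 2 at -3.17, against -1.68 to -1.44 in the other Control arrays and -4.23 to -3.33 in Hemin.

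Tubule markers moved both ways. Among 57 proximal tubule markers 7 rose (12.3%) and 12 fell (21.1%), and among 32 collecting duct markers 5 rose (15.6%) and 4 fell (12.5%), against 18.5% and 17.6% of all genes. Of the proximal tubule markers 3 were higher and 16 lower under quantile normalization and 2 and 16 under the percentile over probes above background. Without scaling, where 8824 of all 18579 genes were higher and 490 lower, 29 of the 57 were higher and 2 lower. Their median of -0.04 became 0.52 without scaling, against 0.62 over all genes, and 0.11 with normexp. With 1 array left out, 3 (Control replicate 1) to 8 proximal tubule markers rose, and 2 (Control replicate 3) to 8 (Control replicate 2) collecting duct markers did. Slc22a8, the basolateral organic anion transporter OAT3, read 2.85, 2.41, 3.51 and 3.28 in Control and 1.17, 1.85, 1.33 and 1.36 in Hemin (log2 fold change -1.59 ± 0.20 (SE), adjusted p = 6.30e-05). In IPC+IRI vs IRI it stood at -1.63. Atp6v0d2, a proton pump subunit gene of intercalated cells, read 0.46, -0.09, 0.47 and 0.65 and -1.04, -0.85, -0.98 and -1.05 (log2 fold change -1.35 ± 0.14 (SE), adjusted p = 1.32e-05), and Hsd11b2, which protects the mineralocorticoid receptor from glucocorticoid, fell with it (log2 fold change -0.998 ± 0.26 (SE), adjusted p = 0.00697). Of 25 immediate early genes 1 rose and 5 fell (20%), without scaling 5 were higher and 1 lower, and 2 fell without Control replicate 3. The phosphatase gene Dusp1 ranged over 2.22 to 3.60 in Control and 0.82 to 2.24 in Hemin, which overlap (log2 fold change -1.09 ± 0.29 (SE), adjusted p = 0.00775), and Myc fell without overlap (log2 fold change -1.40 ± 0.26 (SE), adjusted p = 6.22e-04). In IPC+IRI vs IRI Dusp1 stood at -1.31 and Atp6v0d2 at -0.70.

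Genes of protein synthesis, protein breakdown, RNA splicing and DNA upkeep were called higher at shares above that of all genes, with small folds. Of 81 cytosolic ribosomal protein genes 43 rose (53.1%) and 1 fell, with a median log2 fold change of 0.35. Of 75 mitochondrial ribosomal protein genes 39 rose (52.0%), of 38 proteasome genes 21 (55.3%), of 86 splicing genes 36 (41.9%), of 29 replication-dependent histone genes 15 (51.7%) and of 60 DNA repair genes 20 (33.3%), all against 18.5% of all genes and 29.4% of the brightest of the 4 bins. SAM called far fewer genes higher, 196 of all 18579. Among them were 1 in each of the cytosolic ribosomal, mitochondrial ribosomal, proteasome and histone lists, 2 splicing and 3 DNA repair genes. Without scaling 73 of the cytosolic ribosomal protein genes were higher, and under quantile normalization 28, against 8824 and 3670 of all genes. The counts depended on single Control arrays. With replicate 2 left out, 51 cytosolic and 49 mitochondrial ribosomal protein genes and 23 histone genes rose, whereas 26 cytosolic ones rose with replicate 3 left out, and 24 mitochondrial ones and 10 histone genes with replicate 4 left out. These medians stayed above 0 in each scaling and with normexp. Rpl5, a large subunit protein gene, read 5.45, 6.45, 5.43 and 5.39 in Control and 6.67, 6.65, 6.48 and 6.55 in Hemin (log2 fold change 0.91 ± 0.19 (SE), adjusted p = 0.00172). Psma4 of the proteasome core rose by 0.97 ± 0.18, the spliceosomal Snrpd3 by 1.48 ± 0.26 and the uracil glycosylase gene Ung by 1.10 ± 0.20 on the log2 scale. Of the 3 Snrpd3 probes 2 rose by 1.34 and 1.59 and 1 fell by 0.90. For Rpl5, Psma4 and Snrpd3, Control replicate 2 lay well above the other Control arrays, at 6.45, 2.74 and 2.11. In IPC+IRI vs IRI the medians were 0.44 for cytosolic and 0.41 for mitochondrial ribosomal protein genes, 0.28 for proteasome and 0.84 for histone genes. The study's qRT-PCR reference gene Hprt1 (now Hprt) was itself higher, at 2.86, 3.78, 2.88 and 2.89 in Control and 4.11, 4.05, 4.09 and 4.03 in Hemin (log2 fold change 0.97 ± 0.16 (SE), adjusted p = 2.69e-04).

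**Figure D4:**
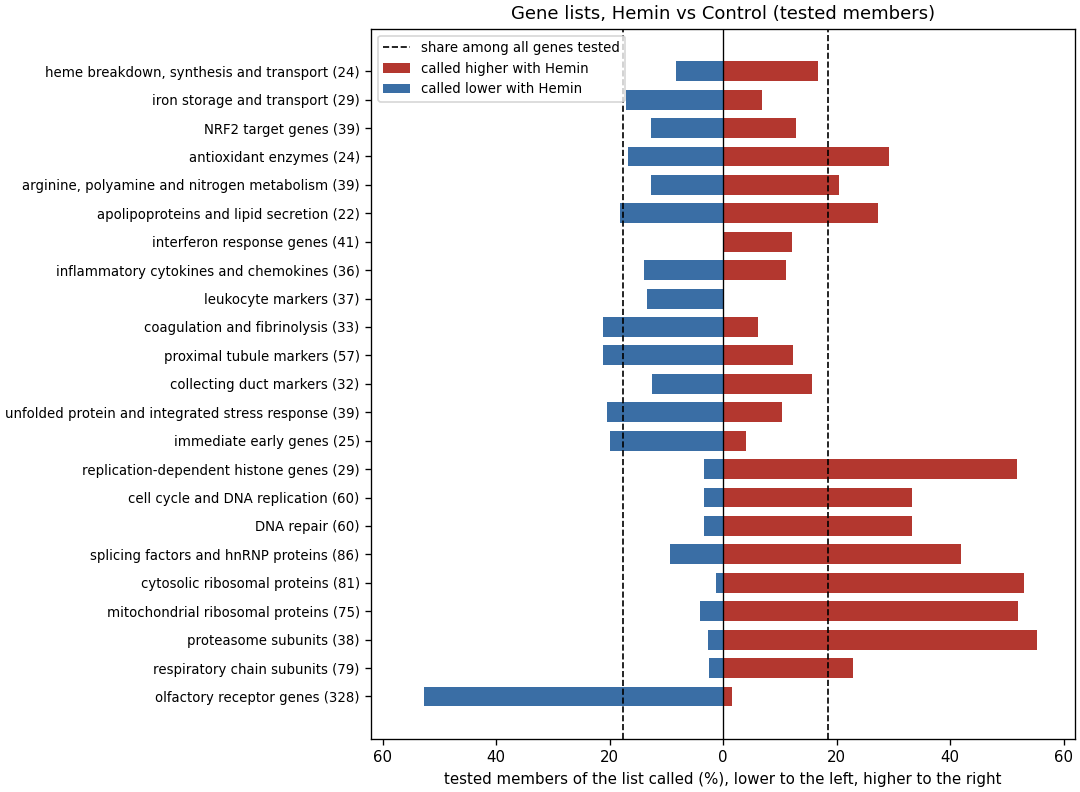
Bars give the percentage of tested members of each gene list that were called higher (right, red) or lower (left, blue) in Hemin vs Control, with the number tested in parentheses and dashed lines at 18.5% higher and 17.6% lower, the shares among all genes. Proteasome, ribosomal and histone genes reached 51.7% to 55.3% higher, olfactory receptor genes 52.7% lower, and heme and iron genes lay within the dashed lines.

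Olfactory receptor genes, a large family whose members kidney holds at most at low levels, had the highest share called lower among the gene lists compared. Of 909 on the array 328 were tested, and 5 of these were higher and 173 lower (52.7%, against 17.6% of all genes). Their median was -0.98 on the log2 scale, against -0.17 in IPC+IRI vs IRI. Their median log2 level was -3.51 to -3.20 on Control and -4.26 to -4.15 on Hemin arrays. Without scaling their median log2 intensity was 4.00 to 4.41 on Control and 3.85 to 4.07 on Hemin arrays, so that the groups overlapped. Of the 328, 204 passed the filter on dim signals through both groups, and 103 of these were lower. Another 85 passed through Control alone, which favours a fall, and 70 of these were lower, against 348 of 457 among all genes that passed so. The remaining 39 passed through Hemin alone, with 2 higher and 0 lower, against 280 and 0 of 1217 among all genes. In the dimmest of the 4 bins, which held 247 of the 328, 52.6% were lower, against 22.2% of all genes there. Olfr1090 ranged over -4.75 to -3.85 in Control and -7.13 to -6.36 in Hemin, at least 2.64-fold lower (adjusted p = 8.36e-05), and Olfr415 (now Olfr248) over -3.48 to -2.08 and -6.57 to -4.40 (log2 fold change -2.60 ± 0.46 (SE), adjusted p = 4.78e-04). Olfr1090 was above background on 3 Control and 0 Hemin arrays and Olfr415 on 4 Control and 1 Hemin array. Both are thus among those that passed through Control alone. The number lower was 138 without Control replicate 2, 82 without scaling (and 37 higher) and 66 with normexp.

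**Figure D5:**
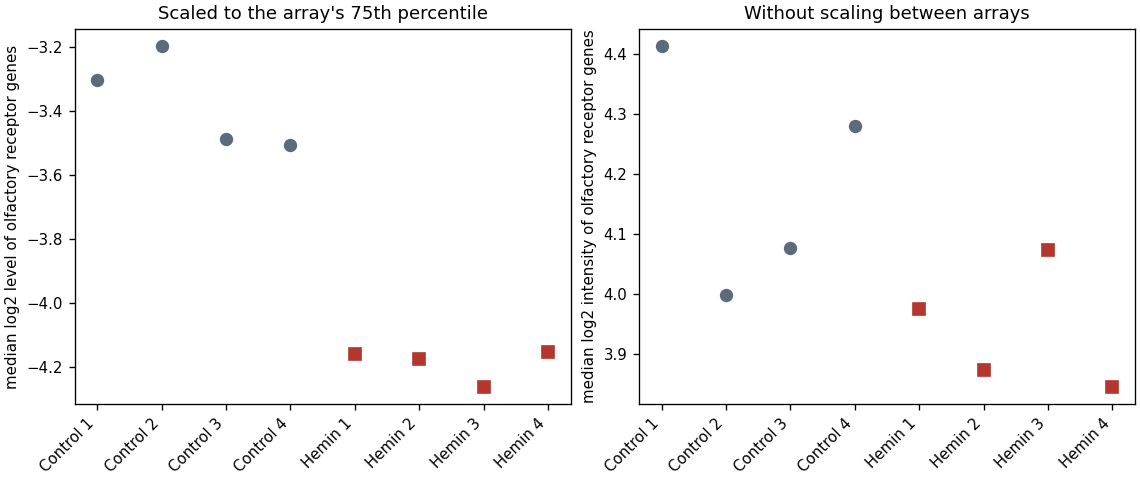
Each point is the median over olfactory receptor genes on 1 array, after scaling to the 75th percentile of the array (left, log2 level) and without scaling (right, log2 intensity), with circles for Control and squares for Hemin. The groups stood apart on the left, at -3.51 to -3.20 and -4.26 to -4.15, and overlapped on the right, at 4.00 to 4.41 and 3.85 to 4.07.

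Of 25 genes that the study listed as most raised by Hemin, 20 were higher here (80%) and 1 lower (4%), against 18.5% and 17.6% of all genes. With normexp 8 were higher and 1 lower (1960 and 1697 of all genes), and by SAM 6 and 0 (196 and 693). In IPC+IRI vs IRI 10 of the 25 were higher and 1 lower, with a median log2 fold change of 0.74, against 1.72 in Hemin vs Control. The difference between both comparisons passed in 2 of them. The list was chosen on these same arrays and is no independent evidence of its direction. Beyond those already described, the synaptotagmin gene Syt10 (1.91 ± 0.42), the mitotic spindle gene Spag5 (1.61 ± 0.33) and Zmynd19 (0.86 ± 0.20) were called higher. So were the axon guidance gene Nav3 (1.63, adjusted p = 0.0514 without Control replicate 3), the endothelial phosphatase gene Ptprb (0.85, 0.0622 without Control replicate 3), the osmotic stress factor gene Nfat5 (0.33, 0.0717 without Hemin replicate 3) and 6430598A04Rik (now Nyap1, 1.23, 0.102 without Hemin replicate 3). The 4 Nfat5 probes above background on all 8 arrays disagreed, with log2 differences of -1.13, 0.03, 0.62 and 1.83. Rwdd2a and the piRNA pathway gene Tdrd12, above background on no Control array, were at least 3.15-fold and 1.87-fold higher, although with normexp both turned negative, as did Nav3. Zfyve9, a SMAD anchor gene, was lower (log2 fold change -0.73 ± 0.16 (SE), adjusted p = 0.00215), although of its 2 probes above background on all 8 arrays 1 fell by 1.15 and the other rose by 0.30 on the log2 scale. Upk3b, a uroplakin gene, had a log2 fold change of 1.90 ± 0.74 and passed without Control replicate 2 (adjusted p = 0.0372). Penk1, Muc20 and Rbm39, with log2 fold changes of 0.81 ± 0.47, 1.49 ± 0.62 and -0.03 ± 0.09, did not pass. For Rbm39 the log2 differences of its 3 probes were 0.03, 1.82 and -0.55, and for Penk1 the 2 probes gave 0.75 and 1.72. Muc20, a membrane mucin gene, read 0.25, 0.46, -0.03 and 0.07 in Control and 1.69, 0.87, 2.92 and 1.24 in Hemin, without overlap. Among the qRT-PCR genes of the study, the neutrophil chemokine gene Cxcl1 read -4.58, -5.65, -2.50 and -4.88 in Control and -4.17, -2.60, -2.29 and -3.04 in Hemin, which overlap, and was above background on 1 Control and 4 Hemin arrays. Cxcl1 thus passed the filter on dim signals through Hemin alone, which favours a rise. Its call (log2 fold change 1.38 ± 0.52 (SE), adjusted p = 0.0456) was lost without Control replicate 2 (log2 fold change 0.96, adjusted p = 0.145). The T cell chemokine gene Ccl5 (-0.80 ± 0.64) and the feedback inhibitor gene Socs3 (0.06 ± 0.29) did not pass. For Ccl5 the groups did not overlap, at -1.79 to -0.75 in Control and -2.37 to -1.89 in Hemin. The SE of both takes in the spread of the injured kidneys.

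Some genes were above background in 1 group alone. In 209 genes all Hemin arrays and no Control array were well above background. These genes were found by the group in which they are bright, so their direction is no result. Bounds compare the bright group with the lowest signal measured above background on the dim arrays. Neil2, a DNA glycosylase gene of base excision repair, was at least 3.45-fold higher, Tnrc4 (now Celf3), a splicing regulator gene, at least 3.18-fold. With normexp Neil2 stood at -0.06 and Rwdd2a at -0.04 on the log2 scale. The reverse pattern held in 68 genes, with 4933430I17Rik at least 6.08-fold and A530099J19Rik (now Gpr141b) at least 3.74-fold lower.

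Hemin was also given before ischemia. IRI+Hemin vs IRI shares no array with Hemin vs Control, crosses the first and second scan days, and called 24.9% of genes higher and 18% lower. Of the 3442 genes higher after Hemin alone 2232 were higher there and 35 lower, and of the 3271 lower 1776 were lower and 192 higher. Apoa4 rose there by 1.20 (adjusted p = 2.99e-04) and Apoc3 by 1.04 (0.00138), and Gatm fell by 1.45 (9.62e-05) and Insig1 by 1.29 (5.01e-06) on the log2 scale. These 4 genes are given because they passed in both comparisons in 1 direction. Among the 12 largest rises and 12 largest falls, the log2 fold change with ischemia differed from that without in 5, against 7.87% of all genes. Since these 24 genes were chosen for the size of Hemin vs Control, this count is a description. They were Calml3 (-0.10 with and 1.94 without ischemia, adjusted p of the difference 0.0254), Chrm1 (0.49 and 1.72, 0.0388), S100a3 (0.54 and -2.21, 1.20e-04), EH103393 (-0.55 and -2.36, 0.0368) and NAP106897-1 (0.29 and -2.31, 0.00637). A further 4 genes, chosen after their values were seen, had log2 fold changes of opposite sign. Alas1 stood at 1.77 with and -0.23 without ischemia (adjusted p of the difference 7.04e-04), F7 at 1.12 and -1.88 (3.24e-04), and Heph at -0.42 and 0.35 (0.00145). Cyp2d34, lower after Hemin alone (-1.71), was higher in IRI+Hemin vs IRI (0.61, adjusted p = 0.00717; difference 3.03e-05). Of the 41 interferon response genes, 2 were higher and 15 lower in IRI+Hemin vs IRI, with a median of -0.52.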

How the data were processed

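RNA of whole kidney was hybridised by the authors to 1-colour Agilent mouse arrays. Per the file headers, Feature Extraction 9.5.3.1 subtracted background and detrended each processed signal intensity, and array annotation was that of mm9. The deposited log2 matrix held log2 of the same intensity, within 0.001 for 100% of its values, and served as an alternative.

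Control spots and spots marked as outliers were left out, spots were averaged per probe, and the 75th percentile of an array served as its scale. Probes were averaged per gene name, giving 27827 genes, and log2 was taken. Genes with at most 1 missing value over 8 arrays and at least 3 of 4 arrays of either group well above background were tested with limma 3.58.1 in R 4.3.3 (lmFit and eBayes, 5 group means over 20 arrays, 15 residual degrees of freedom), with Benjamini-Hochberg adjustment over all genes tested. The fit was tested on simulated data. The number of arrays limits the precision. Promoters came from RefSeq, and of 27827 gene names 19931 had a current symbol.

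The groups and gene lists were chosen with earlier results of these data known. Named were the 12 largest rises and falls among called genes above background on 8 arrays whose groups did not overlap and that passed without Control replicate 2, the genes the study listed, the leading called members of each gene list, all heme and iron genes and the largest bounds. All genes named under this rule numbered 293, of which the text gives those that stand for their group. Chosen after their values were seen were Abca1, Apoa1, Apoc3, Cyp2d34, Eif2ak1, H2-Aa, H2-Ab1, Ifi35 and Ptprc. Alternatives were normexp background correction, other scalings, other summaries of probes, the deposited matrix, other filters, SAM, a replicate block and leaving out each array. A few genes named under the rule are not reported here.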

Additional observations from a re-analysis of the deposited data

Results flagged for a closer look

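In 18 of 208 groups of 4 arrays tested for the genes named here, 1 array lay far from the other 3, where chance gives about 1 in 20. Control replicate 2 was that array in 12 of the 18. Its log2 level was -0.46 for LOC236598, 1.19 for Slc4a7, -2.14 for Epb4.1l3, 1.10 for Pfn1, -0.38 for Steap2 and 3.78 for Hprt1. For Cat it was 5.69, for F5 -3.17, for Rpl5 6.45, for Psma4 2.74, for Snrpd3 2.11 and for Hp 4.48. Hemin replicate 4 stood apart in Chrm1 (-1.30), EH103393 (-2.96), Olfr975 (-3.47) and Bst2 (2.21), and Hemin replicate 2 in Slc40a1 (1.96) and Eif2ak1 (-1.28).

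Of the 24 genes with the largest rises and falls, 5 had a log2 fold change after Hemin that differed between kidneys with and without ischemia, by limma's test of that difference. With ischemia minus without, it was -2.05 for Calml3, -1.23 for Chrm1, 1.81 for EH103393, 2.60 for NAP106897-1 and 2.75 for S100a3. Among the 4 genes set side by side with opposite signs, chosen after their values were seen, it was 2.00 for Alas1, 3.00 for F7, -0.77 for Heph and 2.32 for Cyp2d34.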

How the results depend on the processing

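Of 89 called genes named here, 75 kept their call without each of the 8 arrays in turn, and Olfr1090 kept its call in the 5 such tests that it entered. Among the alternatives counted gene by gene, which leave out SAM, normexp background correction changed the most calls: 59 of 89 kept theirs, 23 no longer passed and 7 turned sign. With normexp, 1960 genes were higher and 1697 lower, with 6 and 6 at least 3-fold. Without scaling between arrays, which moved the median of all genes to 0.62, these counts were 8824, 490, 452 and 41. Quantile normalization gave 123 genes at least 3-fold higher. The percentile over probes above background gave 43, with 4303 lower genes in all. The deposited matrix gave 2160 genes lower, with 47 higher and 132 lower by 3-fold or more. Without the filter on dim genes 5020 were lower and 375 at least 3-fold lower, and with the stricter filter 24 and 87 were at least 3-fold higher and lower. A fit of the 8 Control and Hemin arrays alone gave 4016 higher and 3636 lower, with 78 and 232 at least 3-fold. SAM on 8 arrays gave 196 higher, 693 lower, 19 and 120. The difference from IPC+IRI vs IRI, added after the data were seen, left 35 higher and 307 lower. Leaving out 1 array gave 2424 to 4185 genes higher, 2613 to 3418 lower, 47 (without Control replicate 3) to 135 (without Control replicate 2) higher by 3-fold or more, and 191 to 322 lower by as much. The cause of these movements was not tested.

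With the replicate number as a block, 3191 genes were higher, 3114 lower, 78 higher and 232 lower by 3-fold or more. Deviations of same-numbered Control and Hemin arrays correlated at -0.076, -0.117, -0.031 and -0.035, and in 0 of 4 numbers was the own number best, so the numbers did not pair the arrays. Slide as a random block was not run, because each slide held 1 group.

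Single genes turned sign as follows, on the log2 scale. Without scaling, Hmox2 was at 0.069, Alas1 0.34, Fth1 0.39, Ncoa4 0.043, H2-Ab1 0.027, Eif2ak1 0.076 and Rbm39 0.54. With normexp, Gls2 was at -0.17, Ptprc -0.25, Neil2 -0.057, Rwdd2a -0.045, Apoa1 -0.27, Abcg5 -0.18, Nav3 -0.11, Tdrd12 -0.17, Socs3 -0.027, Hp -0.066 and Rbm39 0.072. With quantile normalization Blvra was at -0.12 and Slc40a1 at -0.026, and with the percentile over probes above background Blvra was at -0.086, Slc40a1 -0.0153, Ptprc -0.10 and Socs3 -0.060. With the mean of log2 over probes Blvra was at -0.61, Heph -0.21, Ptprc -0.55 and Rbm39 0.43, with the brightest probe Rbm39 was at 0.033, and in the deposited matrix Alas1 was at 0.16 and Rbm39 at 1.58. Leaving out 1 array put Ptprc between -0.048 and 0.088 (below 0 without Hemin replicates 3 or 4) and Socs3 between -0.075 and 0.27 (below 0 without Control replicates 2 or 3 or Hemin replicate 3). Genes near background have the least certain folds, since 4 arrays a group and the background correction limit them.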

Other observations

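Glucocorticoid responsive genes were lower in 6 of 24 tested (25%) and higher in 1, against 17.6% and 18.5% of all genes, with 3 lower without Control replicate 3 and 4 without Control replicate 2. Their median was -0.22 on the log2 scale and 0.34 without scaling. Of 39 genes of the unfolded protein and integrated stress response, 4 rose and 8 fell (20.5%), against 18.5% and 17.6%, with a median of 0.02 and of -0.10 under the percentile over probes above background. Under that percentile 1 was higher and 12 lower, under quantile normalization 2 and 11, and without scaling 18 and 1. The number that rose was 10 without Control replicate 2 and 0 without Control replicate 1. Of 79 respiratory chain subunit genes, 18 rose (22.8%, against 18.5% of all genes) and 2 fell, with a median of 0.26, and 30 rose without Control replicate 2. Among 60 cell cycle and DNA replication genes, 20 rose (33.3%) and 2 fell (3.33%), against 18.5% and 17.6% of all genes. Of the genes in the brightest of 4 equal bins by mean level 29.4% rose, but the bins that hold these 60 genes were not counted. Their median was 0.37, and 0.58 in IPC+IRI vs IRI.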
